A study of Mus musculus with 21 samples.

Results

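The genes described here encode 6 chemokine receptors: Ccr2, Ccr9, Cxcr3, Cxcr4, Cxcr6 and Cx3cr1. They were found by symbol, and all 6 were among the 17516 genes counted in each of 21 libraries. The cells were mouse CD8 T cells from the OT1 strain, in which every T cell carries a transgenic receptor for an ovalbumin peptide. Unique molecular identifiers (UMIs, tags that mark single captured RNA molecules) were counted for each gene and single cell. The study followed such cells through culture at a low and a high dose of 3 cytokines.

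The naive library was taken on day 0, before activation. All other cells had been activated with beads coated with antibodies to CD3 and CD28. Cultures left without cytokine gave libraries on days 3 and 5. Those given IL-2, IL-2v or IL-15 gave libraries on days 3, 5 and 10, at a low dose of 5 IU/mL and a high dose of 50 IU/mL. IL-2v is an IL-2 variant that the treatment labels call a mutant IL-2bg. All libraries shared the OT1 receptor, and the labels give neither the age nor the number of the mice. Each of the 21 conditions had 1 library, so nothing here has a replicate and no p-value was computed. For 6 libraries at 50 IU/mL the treatment label conflicts with the title. It names interleukin-3 in the 3 titled as IL-2 and interleukin-16 in the 3 titled as IL-15, and the titles were followed. The extraction text in the labels describes T cells sorted from tumours, while the growth text describes culture; the libraries are treated here as cultured cells.

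Chemokine receptors are G protein-coupled receptors that steer cells along gradients of small secreted proteins, the chemokines. Naive CD8 T cells recirculate through lymph nodes under CCR7, and activation replaces that address with receptors for inflamed tissue. CXCR3 binds CXCL9, CXCL10 and CXCL11, which interferon induces in inflamed sites. CCR2 binds CCL2 and its relatives and marks effector and memory cells able to enter inflamed tissue. CXCR6 binds CXCL16 and is a hallmark of tissue-resident CD8 T cells. CXCR4 binds CXCL12, the retention signal of bone marrow. CCR9 binds CCL25, made by thymus and small intestine. CX3CR1 binds fractalkine and marks cytolytic effector cells.

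In the GRCm38 genome with GENCODE M21 genes, 4 of the 6 genes lie on chromosome 9. Cx3cr1 lies at chr9:119901616-120069879 on the minus strand. Ccr9 at chr9:123678439-123784330, Cxcr6 at chr9:123806475-123811760 and Ccr2 at chr9:124101950-124113557 follow on the plus strand. Cxcr6 starts 22144 bases after the end of Ccr9. Cxcr3 lies at chrX:101731535-101734269 and Cxcr4 at chr1:128588199-128592293, both on the minus strand. Cxcr6 sits inside Fyco1 on the opposite strand and shares no exonic base with it. Of the exonic bases of Ccr9, 18.8% overlap AC165425.1 on the opposite strand, and 269 bases (2.62%) overlap Gm17200 on the same strand. The sources used here do not say whether counting used strand, so reads of the first overlap cannot be told apart, and strand would not part those of the second. Of the 50-base words in exons, 2.13% for Ccr9, all in Gm17200, and 1.91% for Ccr2 also occur in another gene.

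Bases before the start of Cxcr4, Cxcr6 and Cxcr3 are shown to compare a CG-rich with CG-poor upstream stretches. Each runs through the 250 bases before the RefSeq start and was cut where the GENCODE gene begins, so that no base of the gene itself is printed. The other 3 genes are left out, since at least 233 of those bases lie inside their GENCODE genes, behind an earlier start. The sequences are from RefSeq, GRCm38.p6, read along the strand of the gene, with each CG dinucleotide in capitals.
Cxcr4 chr1:128592300-128592549 minus strand: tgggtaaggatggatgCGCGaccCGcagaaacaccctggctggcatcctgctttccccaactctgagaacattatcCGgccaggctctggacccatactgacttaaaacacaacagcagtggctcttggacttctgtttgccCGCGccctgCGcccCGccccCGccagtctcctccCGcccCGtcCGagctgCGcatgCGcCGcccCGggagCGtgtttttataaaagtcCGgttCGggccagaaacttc
Cxcr6 chr9:123806227-123806474 plus strand: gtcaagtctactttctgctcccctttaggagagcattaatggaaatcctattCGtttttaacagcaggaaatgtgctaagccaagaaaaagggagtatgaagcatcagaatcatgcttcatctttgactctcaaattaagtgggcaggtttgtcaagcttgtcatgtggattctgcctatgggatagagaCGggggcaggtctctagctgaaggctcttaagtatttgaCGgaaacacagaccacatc
Cxcr3 chrX:101734270-101734397 minus strand: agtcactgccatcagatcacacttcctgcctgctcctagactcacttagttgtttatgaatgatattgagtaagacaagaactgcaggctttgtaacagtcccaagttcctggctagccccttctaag

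Cxcr4 held 19 CG dinucleotides in these 250 bases, against 3 in 248 for Cxcr6 and 0 in 128 for Cxcr3. Over the 300-base window around the RefSeq start, of which 50 bases follow it, Cxcr4 had 20 and the other 5 genes had 1 to 5. The median of 32851 promoters was 7, and 26.5% of them held at least as many as Cxcr4. At most 5 were found in 43.6%. Each window was searched on both strands for the letters of known binding motifs. The STAT motif TTCNNNGAA was in none of the 6 windows and in 8.30% of all promoters. The T-box motif GGTGTGA was in none and in 3.98%, and the hypoxia factor motif ACGTG was in none and in 19.6%. The KLF motif CCACCC was in the windows of Ccr9 and Cx3cr1 and in 31.5% of all promoters. A match or its absence describes only these letters in this window.

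Libraries held 3250 to 7105 cells and 10589950 to 32648496 UMIs in all. High-dose IL-2 on day 5 had the fewest UMIs. Cd3d, a chain of the T cell receptor complex, had a UMI in 93.0% to 99.5% of cells. The other listed T cell markers were less frequent. Cd3g was in 78.9% to 97.2%, Cd3e in 72.0% to 92.8% and Trac in 56.4% to 78.6%. Cd8a was in 37.0% to 74.2% and Cd8b1 in 54.5% to 92.0%. Cd4 was in at most 1.49%, in the naive library. The myeloid markers Lyz2, Csf1r and Adgre1 were in at most 0.126% of cells. Other listed markers were common in some libraries. The myeloid marker Cst3 was in 20.7% to 41.3% of cells, Fcer1g in up to 17.7% and Cd68 in up to 7.39%, the last 2 highest with high-dose IL-2 on day 10. The NK cell marker Klrb1c was in up to 13.0%, with high-dose IL-2v on day 10. The NK cell markers Ncr1 and Klra8 were in at most 0.0157% and 0.0209% of cells in any library. The myeloid markers Tyrobp and Itgam were in at most 0.668% and 1.66%. Of the B cell markers, Cd79b was in up to 7.45%, Cd79a in up to 0.489% and Ms4a1 in up to 0.0209%. Among all cells, 2878 (2.70%) had a barcode sequence that also occurred in another library, with 1 to 19 shared per pair of libraries. Levels are given as CPM, that is UMIs scaled to an equal library total, with exact Poisson 95% intervals. Shares of cells with a receptor UMI come from cells thinned to 2000 UMIs, with exact binomial intervals (Clopper-Pearson). Shares of cell type markers, also among cells with a receptor, come from cells without thinning. These intervals cover counting error only. No cell type that should lack these receptors was sampled, so the share that free RNA gives was not measured. Levels are not compared between genes.

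Between 11.6% and 74.7% of thinned cells had a UMI of at least 1 of the 6 receptors. The lowest share was on day 3 with 50 IU/mL IL-2 and the highest on day 10 with 5 IU/mL IL-2. In the latter library 33.9% of cells had UMIs of 2 or more receptors, against 0.538% in the former. Naive cells stood at 36.7%, most of it from Ccr9, a receptor that was nearly absent from every activated library. The receptors thus did not move as a block, and each is described by its own pattern. Cx3cr1 reached 20 CPM in none of the libraries, Ccr9 in 1, Cxcr4 in 4, Ccr2 in 11, Cxcr3 in 18 and Cxcr6 in 20. With the 21 libraries ordered by level, the intervals of neighbours overlapped in 10 of 20 steps for Ccr2 and for Cxcr3, 11 for Cxcr6, 15 for Cxcr4 and 19 for Cx3cr1.

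**Figure D1:**
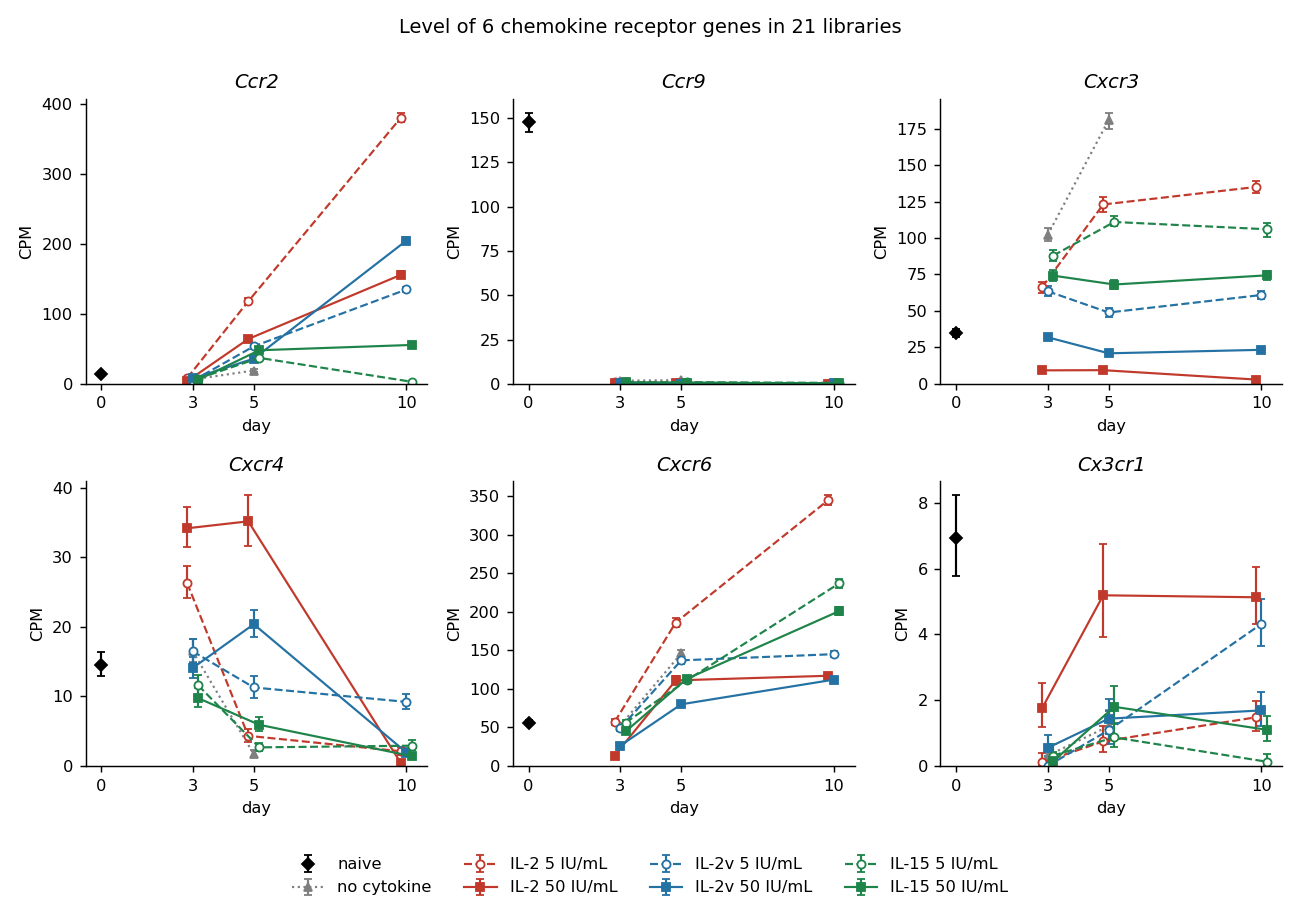
Each panel shows 1 receptor gene, with the day of culture on the x axis and CPM on the y axis, which differs between panels. Points are single libraries, bars are exact Poisson 95% intervals, and lines join libraries of the same cytokine and dose. Ccr9 is high in the naive library alone (148 CPM), Ccr2 and Cxcr6 are highest on day 10 with 5 IU/mL IL-2 (381 and 345 CPM), and Cxcr3 is lowest with 50 IU/mL IL-2 on each day.

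A receptor was tested in a comparison if it reached 20 CPM on average in either arm. It was called if log2(CPM + 1) differed by at least 1, and, in comparisons of several pairs, if all pairs had the same sign and the median passed that size. The same rule was applied to all genes, and the share of tested genes it called is given beside the counts. This scale understates the change of genes with low counts. Between 2 and 4 of the 6 receptors were tested in any comparison, so a receptor not called was often not tested.

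Between naive cells and cells activated without cytokine, Ccr9 and Cxcr3 differed in opposite directions. Ccr9 stood at 148 CPM (142 to 153) in naive cells and at 1.71 (1.21 to 2.34) on day 3, 86.4-fold lower. Cxcr3 stood at 35.0 CPM (32.4 to 37.8) and then at 102 (98.2 to 107), 2.92-fold higher. Cxcr3 was the only receptor of the 3 tested that was called higher, where 11.1% of all tested genes were. Ccr9 was the only receptor called lower, where 8.31% of genes were. Cxcr6 differed by less than counting error, at 56.0 CPM in naive cells and 52.2 on day 3, with overlapping intervals. Ccr2 went from 14.6 to 6.16 CPM, below the limit for testing. Totals free of ribosomal protein and mitochondrial genes are smaller, so CPM rise, and 7801 genes passed the limit in place of 6171. Ccr2 was then tested and called lower (-1.23), where 10.4% of genes were.

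Ccr9 stayed low afterwards. Across the 20 activated libraries it lay between 0 and 2.06 CPM, and 0.300% of thinned cells at most had a UMI. In naive cells that share was 22.7%, or 33.2% without thinning. In the high-dose IL-2 library of day 10 no Ccr9 UMI was seen in 4693 thinned cells. A limit of 3 cells of that total allows a share of up to 0.0639%, and the exact two-sided interval reaches 0.0786%. The highest of these levels, 1.71 and 2.06 CPM, were those without cytokine, and the intervals of neighbours overlapped in 19 of 20 steps of the whole order. Ccl25, which encodes the ligand of CCR9, lay between 7.93 and 26.1 CPM in these T cells.

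The naive library was itself mixed in its receptors. The 9.89% of thinned naive cells with a UMI of Ccl5, a chemokine gene of memory cells that was chosen after values were seen, had 183 CPM of Cxcr3 against 19.0 in the others. They also had 206 CPM of Cxcr6 against 43.2, 57.7 of Ccr2 against 9.18 and 38.5 of Cx3cr1 against 0.496, while Ccr9 was lower, at 45.2 against 169. Without thinning, Klrb1c was in 7.59% of naive cells with Ccr2 against 0.984% of all naive cells, and Cd3d was in 76.1% of those with Cx3cr1. Without cells carrying other-lineage markers, which were 27.3% of naive cells, Ccr2 in the naive library stood at 11.1 CPM in place of 14.6. With Cst3 and Cd79b not counted as such markers, 3.24% of naive cells were left out and Ccr2 stood at 13.4 CPM. Of 19 naive cells with 5 or more Cxcr6 UMIs, all 19 had Cd3d and 4 had Cd8a or Cd8b1. For Ccr2 these were 6 and 3 of 7 cells, for Cxcr3 5 and 2 of 5, and for Ccr9 44 and 40 of 45. The part of cells without Cd8 or with other-lineage markers in the Ccl5 split was not tested. Cxcr4 did not part the naive cells, at 18.1 and 14.5 CPM with overlapping intervals. Cells with UMIs of both Ccr9 and Cxcr3 made up 0.380% of naive cells (0.222% to 0.608%), where the product of the separate shares was 1.23%.

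**Figure D2:**
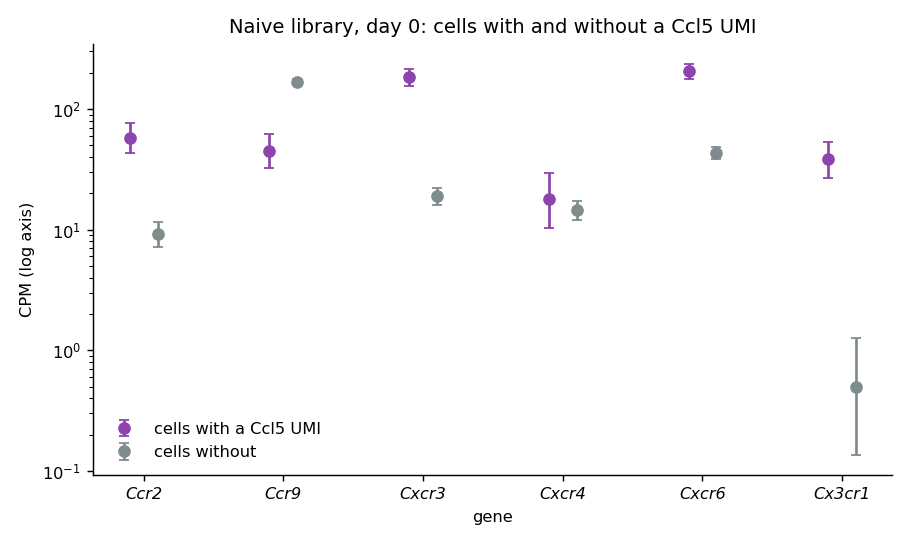
The 6 receptor genes are on the x axis and CPM is on a log y axis, for thinned cells of the naive library with a Ccl5 UMI (442 cells) and without (4029 cells). Bars are exact Poisson 95% intervals; 4 receptors lie higher and Ccr9 lower in cells with Ccl5, and the Cxcr4 intervals overlap.

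Cxcr3, the receptor for interferon-induced chemokines, differed between cytokines and doses. Day 3 levels of Cxcr3 were 102 CPM without cytokine, and at the low and high dose 66.3 and 9.21 under IL-2, 63.5 and 31.9 under IL-2v, 87.9 and 74.2 under IL-15. Day 5 levels of Cxcr3 were 181 CPM without cytokine, and at the low and high dose 123 and 9.35 under IL-2, 48.9 and 20.9 under IL-2v, 111 and 68.1 under IL-15. Day 10 levels of Cxcr3 were 135 and 2.90 CPM under IL-2, 60.9 and 23.3 under IL-2v, 106 and 74.4 under IL-15. The 3 libraries at high-dose IL-2 lay below the other 18, naive cells included, and those at high-dose IL-2v came next. The interval of high-dose IL-2v on day 3 overlapped that of naive cells. On day 3 and on day 5 each of the 6 cytokine libraries was below the library without cytokine, with intervals apart. The share of thinned cells with Cxcr3 went from 0.767% on day 10 with 50 IU/mL IL-2 (1.38% without thinning) to 31.0% on day 5 without cytokine (49.4%).

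The dose difference of Cxcr3 was largest within IL-2. Cells at 50 IU/mL had 7.20-fold less Cxcr3 than cells at 5 IU/mL on day 3, 13.1-fold less on day 5 and 46.5-fold less on day 10. The median log2 difference was -3.58. Cxcr3 and Cxcr6 were the 2 receptors called lower in the dose comparison of IL-2, where 2.70% of tested genes were, and none was called higher, where 4.29% were. With totals free of ribosomal protein and mitochondrial genes the shares were 3.67% lower and 3.77% higher, and with them Ccr2 was called lower too, at -1.04. The shares lower and higher were 5.00% and 6.53% without day 3, 5.45% and 3.78% without day 5, and 2.08% and 5.86% without day 10. Within IL-2v, Cxcr3 was again called lower, with 1.99-fold, 2.34-fold and 2.61-fold less at 50 IU/mL and a median of -1.19. That comparison called 0.626% of genes lower and 2.38% higher (0.987% and 1.75% with TMM scaling, which trims extreme genes before setting the totals). A pseudocount of 10 in place of 1 took the IL-2v median to -0.93, below the limit. Within IL-15, Cxcr3 was lower in 3 of 3 pairs with a median of -0.50, and no receptor was called, where 0.181% of genes were called lower and 0.869% higher.

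**Figure D3:**
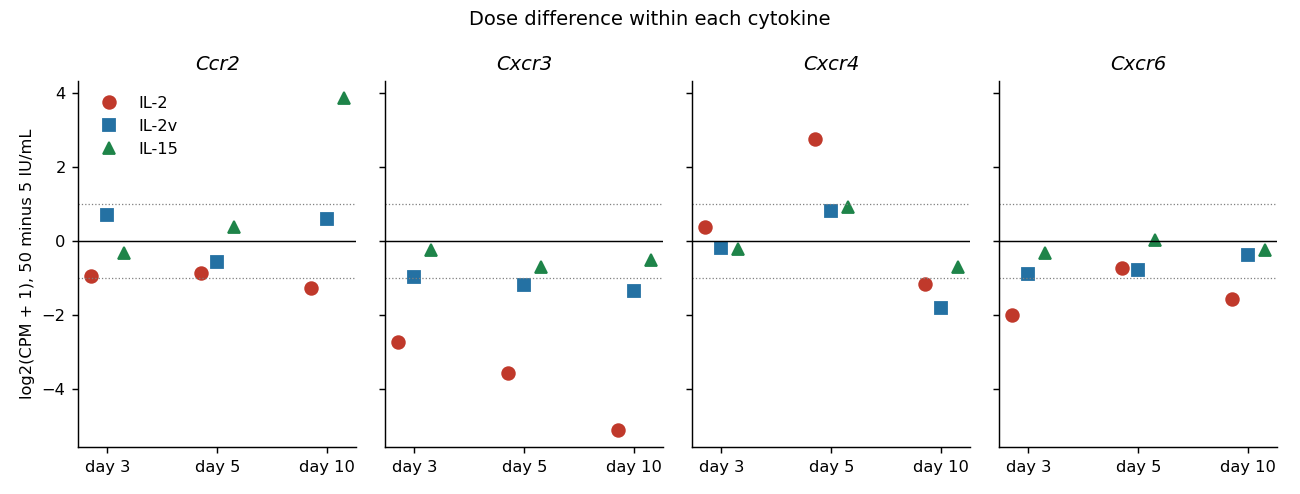
For 4 receptor genes, the y axis gives log2(CPM + 1) at 50 IU/mL minus that at 5 IU/mL and the x axis the day. Each symbol is 1 pair of libraries, the solid line is 0 and the dotted lines mark a log2 difference of 1 in size. All 9 Cxcr3 symbols lie below 0, from -5.12 to -0.24, while Ccr2 and Cxcr4 lie on both sides.

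Between cytokines at equal day and dose, Cxcr3 was the receptor that separated IL-2v from IL-15. It was lower with IL-2v in 6 of 6 pairs, with a median log2 difference of -1.18, from -1.66 to -0.46, and the intervals were apart in all 6. No other receptor was called, where 0.585% of genes were called lower and 2.48% higher (0.918% and 1.51% with TMM scaling). Without the day 5 pairs the median was -0.99 and Cxcr3 missed the limit. Cxcr4 was higher with IL-2v in 6 of 6 pairs, with a median of 0.94, but its mean levels of 12.2 and 5.71 CPM were below the limit for testing.

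IL-2 stood on both sides of the others for Cxcr3, depending on dose. At 5 IU/mL the IL-2v minus IL-2 difference was -0.06, -1.31 and -1.13 on days 3, 5 and 10, and at 50 IU/mL it was 1.69, 1.08 and 2.64. IL-15 minus IL-2 gave 0.40, -0.14 and -0.35 at 5 IU/mL and 2.88, 2.74 and 4.27 at 50 IU/mL. No receptor kept 1 sign in all 6 pairs with the size required. The IL-2v minus IL-2 comparison called 1.04% of genes higher and 0.274% lower (0.621% and 0.432% with TMM scaling). The IL-15 minus IL-2 comparison called 0.490% higher and 1.70% lower (0.713% and 1.40% with totals free of ribosomal protein and mitochondrial genes). Both comparisons use the same 6 IL-2 libraries.

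Ccr2, the receptor for CCL2, was higher on day 5 than on day 3 throughout, while its day 10 levels ranged from the lowest to the highest of all libraries. On day 3 the 7 libraries lay between 3.76 and 8.13 CPM, below the 14.6 of naive cells. Day 5 levels of Ccr2 were 19.0 CPM without cytokine, and at the low and high dose 118 and 64.1 under IL-2, 53.6 and 36.0 under IL-2v, 37.1 and 48.0 under IL-15. Day 10 levels of Ccr2 were 381 and 156 CPM under IL-2 and 2.83 and 55.6 under IL-15. Under IL-2v it stood at 135 CPM at the low dose, with an interval of 200 to 210 at the high dose. All 7 libraries of day 5 lay above all 7 of day 3. The 4 highest libraries were the IL-2 and IL-2v libraries of day 10, while 5 IU/mL IL-15 on that day was the lowest of all, with an interval that overlapped the next library, high-dose IL-2 on day 3. From day 5 to day 10 Ccr2 was higher in 5 of 6 pairs, with a median of 1.29, and in the pair with 5 IU/mL IL-15 it was 13.1-fold lower.

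The library with the highest Ccr2 level, low-dose IL-2 on day 10, had a Ccr2 UMI in 44.7% of thinned cells (61.9% without thinning), with 1.70 UMIs per such cell. In the lowest, low-dose IL-15 on day 10, the share was 0.463% (0.771%). In no library did a cell with a Ccr2 UMI carry a UMI of the myeloid markers Lyz2, Csf1r or Adgre1, and 89.8% to 100% of these cells had Cd3d. Those 3 markers were at 0 in every activated library. Depth was not matched in the shares of markers, which are without thinning, and all cells include those with Ccr2. Fcer1g, Cd68 and Klrb1c were found in Ccr2 cells too. With high-dose IL-2 on day 10 they were in 16.7%, 7.95% and 9.73% of cells with Ccr2 and in 17.7%, 7.39% and 8.71% of all cells. With high-dose IL-2v on day 10 they were in 8.25%, 3.25% and 16.4% of cells with Ccr2 and in 7.58%, 2.85% and 13.0% of all cells. With low-dose IL-2 on day 10, Klrb1c was in 9.72% of cells with Ccr2 against 6.49% of all cells, and Fcer1g in 4.15% against 2.87%. Klrb1c was also more frequent in cells with Ccr2 with low-dose IL-2v (2.83% against 1.34%) and high-dose IL-15 (3.76% against 0.947%) on day 10. Without all cells carrying an other-lineage marker, Ccr2 stood at 341 and 180 CPM at the low and high dose of IL-2 on day 10 and at 127 and 207 for IL-2v, so these 4 libraries were again above the other 17. That filter left out 39.8% to 56.8% of the cells of these 4 libraries. With Cst3 and Cd79b not counted as such markers it left out 3.41% to 29.6%. Ccr2 then stood at 343 and 168 CPM for IL-2 and at 130 and 201 for IL-2v.

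**Figure D4:**
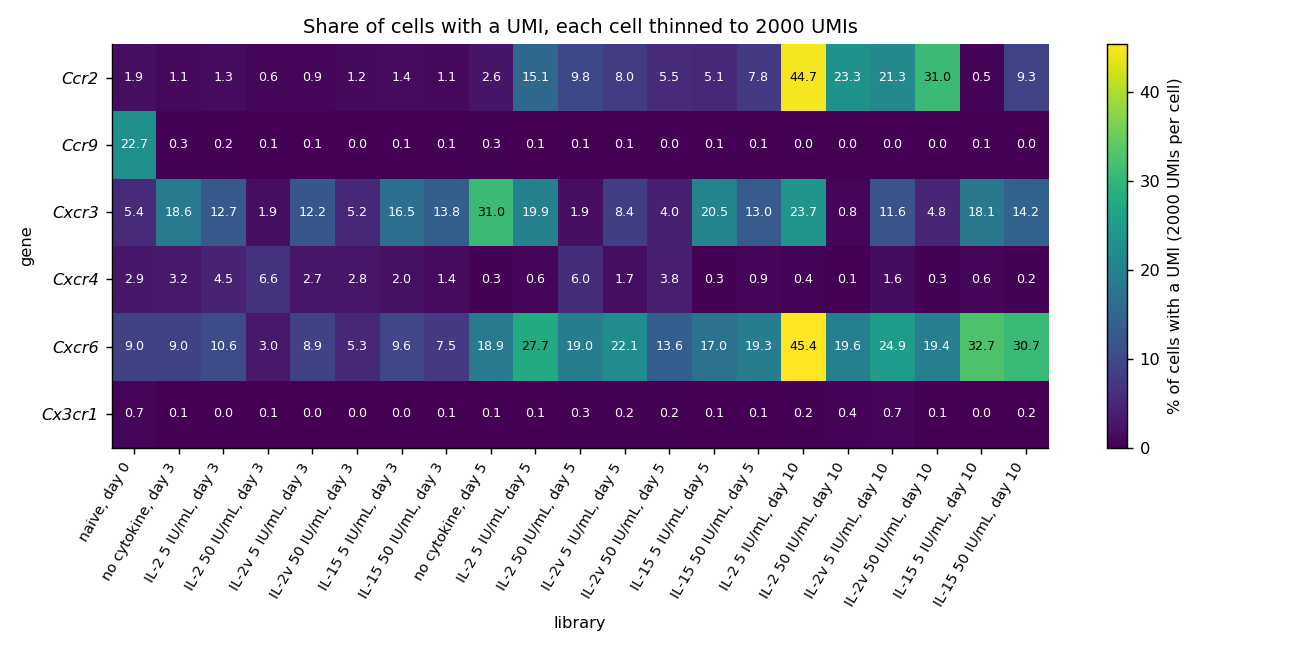
Rows are the 6 receptor genes and columns the 21 libraries; colour and printed numbers give the percent of cells with a UMI after each cell was thinned to 2000 UMIs. Ccr2 and Cxcr6 reach 44.7% and 45.4% on day 10 with 5 IU/mL IL-2, Cxcr3 reaches 31.0% on day 5 without cytokine, and Ccr9 is above 1% in the naive library alone.

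Cxcr6, the receptor of tissue-resident cells, was higher on day 5 than on day 3 in each of the 7 conditions with both days. Day 3 levels of Cxcr6 were 52.2 CPM without cytokine, and at the low and high dose 57.2 and 13.6 under IL-2, 48.9 and 26.2 under IL-2v, 56.3 and 44.8 under IL-15. Day 5 levels of Cxcr6 were 146 CPM without cytokine, and at the low and high dose 186 and 111 under IL-2, 137 and 80.0 under IL-2v, 111 and 113 under IL-15. Day 10 levels of Cxcr6 were 345 and 117 CPM under IL-2, 145 and 112 under IL-2v, 237 and 201 under IL-15. All 7 day 5 libraries lay above all 7 day 3 libraries and above naive cells. The library of day 10 with low-dose IL-15 was next to the highest for Cxcr6 and the lowest for Ccr2, so the 2 receptors parted there.

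From day 3 to day 5, Ccr2 and Cxcr6 were called higher, where 0.829% of tested genes were (1.17% with TMM scaling), with medians of 3.12 and 1.52. Ccr2 differed by 4.75-fold to 17.1-fold and Cxcr6 by 1.97-fold to 8.14-fold. No receptor was called lower, where 2.22% of genes were (1.55%). From day 5 to day 10 no receptor was called, where 0.0705% of genes were called higher and 1.62% lower (0.155% and 1.19% with TMM scaling). Cxcr6 was higher in 6 of 6 of these pairs with a median of 0.65, and the intervals overlapped for high-dose IL-2 and for low-dose IL-2v. From day 3 to day 10 Cxcr6 was called higher, with a median of 2.10, where 0.870% of genes were (1.64% with TMM scaling) and 7.98% were called lower (4.73%). Without cytokine, Cxcr6 was called higher on day 5 than on day 3, at 2.79-fold, where 3.61% of genes were (5.06% with TMM scaling) and 9.47% were called lower (8.25%).

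With IL-2, Cxcr6 was lower at 50 than at 5 IU/mL by 4.19-fold on day 3, 1.67-fold on day 5 and 2.96-fold on day 10. With IL-2v it was lower in 3 of 3 pairs with a median of -0.77, short of the limit. With IL-15 the differences ran from -0.32 to 0.02. Ccr2 was also lower at 50 IU/mL of IL-2 in 3 of 3 pairs, with a median of -0.94, short of the limit. It passed the limit without day 3 (-1.08) and without day 5 (-1.11), and without day 10 Cxcr4 was called higher (1.56).

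Cxcr4, the CXCL12 receptor, was lower on later days in most conditions. Day 3 levels of Cxcr4 were 16.5 CPM without cytokine, and at the low and high dose 26.3 and 34.2 under IL-2, 16.5 and 14.1 under IL-2v, 11.6 and 9.76 under IL-15. Day 5 levels of Cxcr4 were 1.71 CPM without cytokine, and at the low and high dose 4.34 and 35.2 under IL-2, 11.3 and 20.4 under IL-2v, 2.68 and 5.93 under IL-15. Day 10 levels of Cxcr4 were 2.12 and 0.403 CPM under IL-2, 9.22 and 1.94 under IL-2v, 2.92 and 1.41 under IL-15. The cytokine libraries of day 10 lay below their day 3 partners in 6 of 6 pairs, with a median of -2.26. These levels were below the limit for testing. Totals free of ribosomal protein and mitochondrial genes raise all CPM. With them Cxcr4 was tested there and called lower (-2.28), where 6.92% of genes were. They also had it called lower from day 3 to day 5 without cytokine (-2.88), where 10.0% were. With 50 IU/mL IL-2, Cxcr4 stayed near 35 CPM through day 5 and was then 87.3-fold lower on day 10.

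Within most libraries Cxcr4 was higher in cycling cells. Cells with a UMI of Mki67 or Top2a, genes of dividing cells, had more Cxcr4 than the other cells in 15 of 21 libraries, judged by intervals that did not overlap, and less in none. The ratio in these 15 ran from 3.39 to 19.9, the highest resting on very few UMIs in the other cells. On day 3 with 50 IU/mL IL-15, cycling cells had 13.8 CPM (10.5 to 17.9) and the others 0.692 (0.143 to 2.02). In the day 10 library with low-dose IL-2v they had 22.6 CPM (18.1 to 27.8) and 2.03 (1.18 to 3.24). The IL-2 library at 50 IU/mL on day 3 did not part in this way, with 35.5 CPM (30.1 to 41.6) in cycling cells and 35.2 (28.1 to 43.5) in the others. Nor did the intervals part on day 5 at that dose, at 38.3 and 26.4 CPM. The share of cycling cells also differed between libraries, from 1.79% in naive cells and 2.48% on day 10 with 5 IU/mL IL-15 to 78.3% under high-dose IL-2v on day 3. Its part in the Cxcr4 differences between libraries was not tested.

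**Figure D5:**
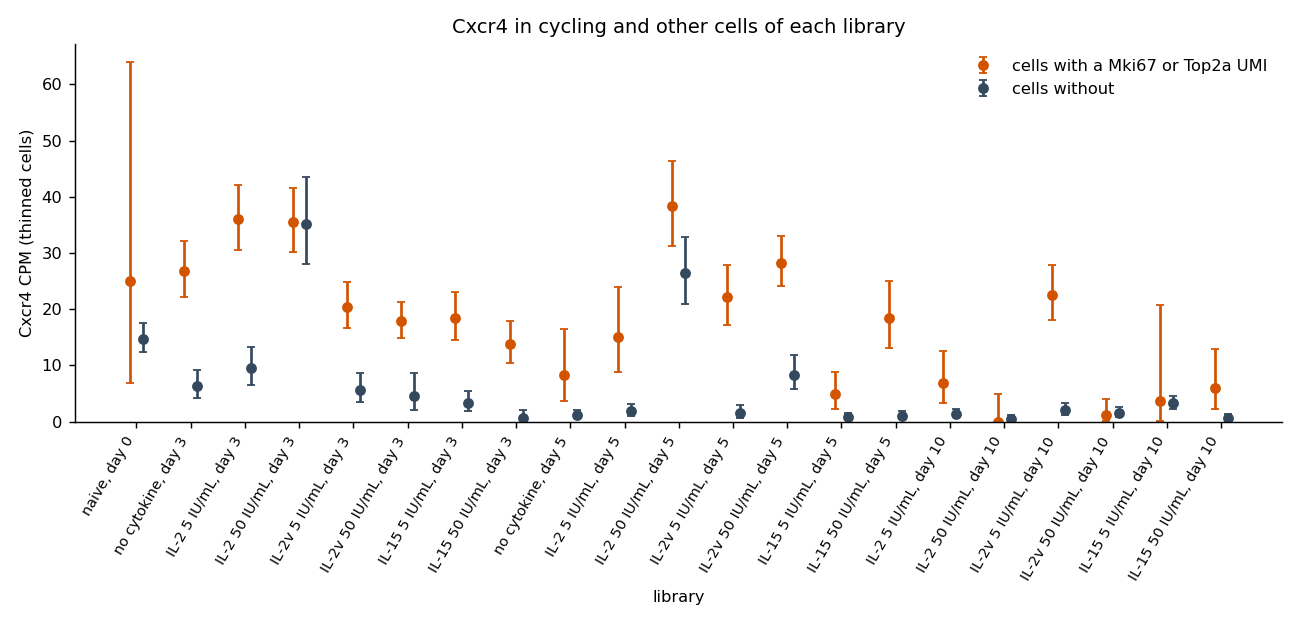
Cxcr4 CPM in thinned cells with and without a Mki67 or Top2a UMI is on the y axis, for each of the 21 libraries on the x axis. Bars are exact Poisson 95% intervals, which part with cycling cells higher in 15 libraries and overlap in 6, among them 50 IU/mL IL-2 on day 3 (35.5 and 35.2 CPM).

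The other receptors did not share that split. Cxcr6 was higher in noncycling cells in 9 libraries, by 1.18-fold to 1.80-fold, and higher in cycling cells in none. Cxcr3 was higher in noncycling cells in 8 libraries and in cycling cells in 1, the naive library. Ccr2 was higher in noncycling cells in 7 and in cycling cells in 3.

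The cells of each library were also divided by Gzmb, the granzyme B gene. Cxcr6 was higher in cells with a Gzmb UMI in 16 of 21 libraries, and Ccr2 in 12. Cxcr3 parted by Gzmb in the naive library alone. In the day 10 library with low-dose IL-15, 0.389% of cells had a Gzmb UMI. These 21 cells had 833 CPM of Cxcr6 against 245. They had 71.4 CPM of Ccr2 (14.7 to 209) against 3.35, a level that rests on very few UMIs.

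In single cells, Ccr2 and Cxcr6 were found together more often than the product of their shares in 8 of the 11 libraries in which both were in at least 5% of cells. The ratio of the joint share to the product had a median of 1.26 and ran from 1.05 to 1.91. With low-dose IL-2 on day 10, 23.1% of cells (22.1% to 24.2%) had both, where the product was 20.3%. For Ccr2 and Cxcr3 the product lay inside the interval in all 7 libraries with both in at least 5% of cells. For Cxcr3 and Cxcr6 it lay below the interval in 6 of 16 and inside in 10. Their ratio had a median of 1.12 and ran from 0.905 to 2.44, the highest in naive cells.

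Cx3cr1 did not reach 20 CPM, the limit for testing, in any of the 21 libraries, with 6.93 CPM (5.78 to 8.24) in naive cells and 0 to 5.19 CPM in activated libraries. Without that limit Cx3cr1 was called lower in activation without cytokine (-2.59), where 5.95% of all genes were. It was called higher at the high dose of IL-2 against the low dose (1.31), where 2.75% of genes were. Against no cytokine, that dose had it called higher on day 3 (1.07) and day 5 (1.49), where 4.18% and 11.5% were. In cells with Ccl5, Cx3cr1 was higher, with intervals apart, in 3 of 21 libraries: naive cells, and on day 5 those without cytokine and with 5 IU/mL IL-15. The library at 0, low-dose IL-2v on day 3, allows a share of up to 0.0717% of its 4182 thinned cells by the same limit, and 0.0882% by the exact interval. The UMIs sat in few cells. With high-dose IL-2 on day 10, 42 cells held 140 UMIs, and a single cell held 33 of them. On day 3 at that dose 1 cell held 19 of 29 UMIs, and on day 5 1 cell held 16 of 55. In that day 10 library 8 cells had 5 or more Cx3cr1 UMIs; all 8 had Cd3d and 6 had Cd8a or Cd8b1. With low-dose IL-2v on day 10 the 141 UMIs were instead spread over 120 cells, with at most 4 in a cell. Among 67 naive cells with Cx3cr1, 51 had Cd3d and 1 had a UMI of Lyz2, Csf1r or Adgre1.

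Against activated cells without cytokine, no receptor was called on day 3 at the low dose of any cytokine, nor at the high dose of IL-15. Of the 6 receptors, 3 were tested with low-dose IL-2 and 2 in each of the others. Cxcr3 was tested in all of these and was lower, short of the limit. Its differences were -0.62, -0.68 and -0.22 at low-dose IL-2, IL-2v and IL-15, and -0.46 at high-dose IL-15. The intervals were apart in each. Low-dose IL-2 had 0.142% of genes called higher and 0.106% lower (0.0549% and 0.146% with TMM scaling). Low-dose IL-2v had 0.211% and 0.0704% (0.126% and 0.108%), and low-dose IL-15 0.142% and 0.285% (0.0912% and 0.328%). High-dose IL-15 had 0.819% and 0.261% (0.484% and 0.413%). The receptors called on day 3 were all at the high dose of IL-2 or IL-2v. With 50 IU/mL IL-2, Cxcr4 was called higher (1.01), where 6.45% of genes were, and Cxcr3 (-3.34) and Cxcr6 (-1.86) lower, where 2.74% were. TMM scaling gave 4.81% and 3.79% and took Cxcr4 to 0.87, below the limit, as did totals free of ribosomal protein and mitochondrial genes, at 0.92, and a pseudocount of 10, at 0.74. With 50 IU/mL IL-2v, Cxcr3 was called lower (-1.65), where 1.75% of genes were (3.34% with TMM scaling), and 7.83% were called higher (4.87%). Cxcr6 was just short of the limit, at -0.97, and was called lower with TMM scaling (-1.15), totals free of ribosomal protein and mitochondrial genes (-1.09), noncycling cells (-1.02) and the mean of single-cell CPM (-1.01).

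On day 5 with 5 IU/mL IL-2, Ccr2 was called higher (2.57), where 2.14% of genes were, and no receptor lower (0.360%). With 50 IU/mL IL-2, Ccr2 (1.70) and Cxcr4 (3.74) were called higher, where 16.5% of genes were (13.5% with TMM scaling), and Cxcr3 (-4.13) lower, where 7.54% were (11.0%). With 5 IU/mL IL-2v, Ccr2 (1.45) was called higher and Cxcr3 (-1.86) lower, against 9.75% and 2.62% of genes (7.82% and 3.89% with TMM scaling). With 50 IU/mL IL-2v, Cxcr4 (2.98) was called higher and Cxcr3 (-3.05) lower, against 21.1% and 5.53% of genes (12.9% and 11.6% with TMM scaling). Cxcr4 did not reach 20 CPM there, and so was not called, with TMM scaling (2.69), in noncycling cells (2.16), without cells carrying other-lineage markers (2.87) and with the mean of single-cell CPM (2.99). Ccr2 passed the limit in noncycling cells (1.43) and without cells of other-lineage markers (1.13), and Cxcr6 with TMM scaling (-1.19) and with totals free of ribosomal protein and mitochondrial genes (-1.04). With 5 IU/mL IL-15 no receptor was called, where 1.42% and 0.321% of genes were. These shares were 0.421% and 0.211% in noncycling cells, and 2.08% and 0.204% with totals free of ribosomal protein and mitochondrial genes. Ccr2 was near the limit there, at 0.93, and passed it without cells of other-lineage markers (1.11) and with totals free of ribosomal protein and mitochondrial genes (1.01). With 50 IU/mL IL-15, Ccr2 (1.29) was called higher and Cxcr3 (-1.40) lower, against 5.82% and 1.90% of genes. A pseudocount of 10 took Ccr2 just below the limit, at 1.0 after rounding, and ended that call. The 6 comparisons of a day share the same library without cytokine, so their calls are not independent.

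Of 18 other chemokine receptor genes, 16 were in the tables. Ccr7, the lymph node receptor, was lowest on day 10 with 50 IU/mL IL-2, at 2.68 CPM, and highest on that day with 5 IU/mL IL-15, at 302. It was called lower at 50 than at 5 IU/mL of IL-2v, with a median of -1.62, where 0.626% of tested genes were. Ccr4 was highest on day 3 with 50 IU/mL IL-2, at 27.4 CPM. Of 11 ligand genes 4 were in the tables, and Ccl25 alone reached 20 CPM, without cytokine on day 5 (23.8) and with low-dose IL-15 on day 10 (26.1).

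Several genes on a list of lymphocyte egress and residence were lower at the high dose of IL-2. The IL-2 dose comparison and that with IL-15 use the same IL-2 libraries. The list was chosen with earlier results of these data known, so its counts beside all genes are a description and not a test. Of its 9 genes 7 were tested, and 5 were called lower at 50 than at 5 IU/mL, where 2.70% of all tested genes were, among them S1pr1, Klf2, Klf3 and Itga4. S1pr1 encodes the exit receptor for sphingosine 1-phosphate, and Klf2 a factor that maintains it. Of the residence genes on the list, Cd69, which holds cells in tissue, was not called, with differences from -0.55 to 1.65, a median of 0.80 and 2 of 3 pairs higher. Itgae, the CD103 integrin chain, was lower in 3 of 3 pairs with a median of -2.38, but below the limit for testing. The median log2 difference of the 7 was -1.76, against 0.03 over all tested genes. Between IL-15 and IL-2, 4 of 7 tested were called higher with IL-15, where 0.490% of all tested genes were, among them Klf2, Klf3 and Itga4, with a median of 1.66 against -0.01 over all genes. Of 17 genes of receptor signalling, such as G protein subunits and arrestins, 14 were tested in the IL-2 dose comparison. Of these 1, the signalling brake Rgs1, was called higher, where 4.29% of all tested genes were, and their median was -0.06.

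The genes with the most similar profiles were found by Pearson correlation of log2(CPM + 1) across libraries, given as a description. The libraries share series of cytokine and day, so they are not independent points. Over the 18 cytokine libraries the 3 closest to Ccr2 included S100a4 (0.952) and S100a6 (0.946), and over all 21 they were S100a4 (0.949), Anxa1 (0.921) and S100a6 (0.909). The closest to Cxcr3 were Ms4a6b (0.958), Fam53b (0.955) and Ms4a4b (0.944) over 18, and Aamdc (0.933), Fam53b (0.915) and Ms4a4b (0.914) over 21. The closest to Cxcr6 were Cdc42ep3 (0.935), Ifi209 (0.931) and Lax1 (0.905) over 18, and the 3 closest over 21 included Ifi209 (0.880) and Cdc42ep3 (0.862). The closest to Cxcr4 were Hjurp (0.964), a centromere assembly gene of dividing cells, Brd8 (0.955) and Kat7 (0.949) over 18, and Brd8 (0.943), Cep57l1 (0.932) and Clasp2 (0.928) over 21. For Ccr9 the closest over 21 were Pced1b (0.874), Map4k4 (0.787) and Tasor (0.777), and this rests on 1 high library, the naive one. Over 18 they were Fundc1 (0.866), Slamf6 (0.859) and 2310001H17Rik (0.849), at Ccr9 levels of at most 0.903 CPM.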

How the data were processed

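The authors deposited 1 table of raw UMI counts per library, with genes in rows and cells in columns. Per the submitters' processing notes, build mm10, Cell Ranger and Seurat 4.0.1 and 3.0.2 were used. Their roles, the annotation and any doublet removal are not given in the sources used here, and no doublet caller was run. Barcodes below 1000 UMIs or 500 genes, or above 10% mitochondrial UMIs, were dropped, which took out 2 and left 106456 cells. UMIs were summed per library and scaled to CPM. Python 3.11.15 with scipy 1.17.1 was used, and TMM factors came from edgeR 4.0.16. No model was fitted, since each condition had 1 library. The comparison rule was run on simulated counts with known changes and counting error only. Its rate of false calls between real libraries was not measured. The members and gene lists were chosen with earlier results of these data known, and the split by Ccl5 after values were seen. Named genes were the 6 receptors, family and ligand genes at 20 CPM in any library, the 3 genes of highest correlation with each receptor among those averaging 20 CPM or more, and the called genes of the other lists; some genes that this rule names are not reported here. Alternatives changed cell filters, scaling, pseudocount, expression filter, thinning, cycling cells and the days used.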

Additional observations from a re-analysis of the deposited data

How the results depend on the processing

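No analysis paired by replicate was possible, because each condition had 1 library. Pairs in the text are libraries matched by day, dose or cytokine. Over 23 comparisons and their alternative settings, 271 counts of called receptors were recomputed, and 249 stayed within 1.5 times the value reported. This rule counts 0 against 0 as unchanged, and also a swap of 1 receptor for another. Keeping all barcodes adds 2 cells, so that setting could hardly move a count. No called difference of a receptor changed sign in any setting. Without the expression filter, activation called 4 receptors and the day 5 step without cytokine 3. Against none, 50 IU/mL IL-2 called 5 on day 3 and 5 on day 5, and 50 IU/mL IL-2v 2 on day 3. Day 10 against day 3 called 2. Percentages in this paragraph are the shares of all tested genes called higher and then lower. Here, with all 17516 genes tested, they were 9.01% and 5.95% for activation and 2.04% and 7.45% for the step. For IL-2 they were 4.18% and 2.31% on day 3 and 11.5% and 5.21% on day 5. For IL-2v they were 4.36% and 1.40%, and for day 10 against day 3 0.462% and 6.08%. Totals free of ribosomal protein and mitochondrial genes gave 3 for the step without cytokine (3.59% and 10.0%). They gave 2 for 50 IU/mL IL-2v on day 3 (5.73% and 2.86%) and 2 for day 10 against day 3 (1.13% and 6.92%). For 5 IU/mL IL-15 on day 5 they gave 1 (Ccr2, 2.08% and 0.204%). TMM scaling gave 2 for the step without cytokine (5.06% and 8.25%) and 2 for 50 IU/mL IL-2v on day 3 (4.87% and 3.34%). It moved the median of all tested genes by over 0.1 in 12 of 23 comparisons, at most by 0.39, from 0.3 to -0.09, on day 5 for high-dose IL-2v. For 50 IU/mL IL-2v the mean of single-cell CPM gave 2 on day 3 (8.92% and 2.21%) and 1 on day 5 (21.1% and 5.66%). Noncycling cells gave 2 for it on day 3 (16.6% and 3.83%). Leaving out cells with other-lineage markers gave 1 for 5 IU/mL IL-15 on day 5 (Ccr2, 0.834% and 0.284%). A pseudocount of 10 gave 1 for 50 IU/mL IL-15 on day 5 (3.77% and 1.04%) and 0 for the IL-2v dose (1.29% and 0.389%). IL-15 against IL-2 gave 1 without day 3 (Ccr2, -1.56) and 1 without day 10 (Cxcr4, -1.42). The shares there were 0.892% and 3.86%, and 0.330% and 1.48%. Without day 5, IL-2v against IL-15 gave 0 (1.35% and 1.07%). The IL-15 dose gave 1 without day 3 (Ccr2, 2.13), with shares of 2.80% and 0.574%. A filter that does not count Cst3 and Cd79b as other-lineage markers was chosen after seeing the data. The cause of these shifts was not tested. Counts of Ccr9 and Cx3cr1 in activated libraries were often a few UMIs, too few to order these libraries.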
